A study of Homo sapiens with 32 samples.

Results

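The comparison described here asked which RNAs answered auxin differently in unstressed HCT116 cells with and without a degron on IGF2BP3. It used the 16 unstressed libraries of a series of 32, in 4 groups of 4. HCT116 is an established human colorectal carcinoma line, and all cells carried OsTIR1 under a doxycycline-inducible promoter. The parental line had untagged IGF2BP3, and the tagged line had the mini degron mAID on both endogenous alleles. Each line received vehicle (DMSO) or 500 µM auxin (IAA) for the last 9 h before collection. All 16 wells also received 200 ng/mL doxycycline for 24 h, 250 µM 4-thiouridine (s4U) for 2 h, and DMSO in place of the stress agent tunicamycin. The other 16 libraries came from the same 4 groups under 5 µg/mL tunicamycin for 5 h and are used only where named. Vehicle-treated tagged cells also had doxycycline, the inducer of OsTIR1, and any loss of IGF2BP3 before auxin was not measured here. Whether the tagged line is 1 clone is not given in the sources used here.

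IGF2BP3 is an RNA-binding protein of the insulin-like growth factor 2 mRNA-binding family, made mainly in embryonic tissue and again in many tumours, and is known for binding mRNAs and affecting their stability and translation. OsTIR1 is a plant F-box protein. With auxin it joins a cullin-RING ubiquitin ligase of the host cell, which marks mAID-tagged proteins for the proteasome. Auxin added to parental cells therefore shows what auxin does without a tagged target. In SLAM-seq, s4U built into new RNA is read as a T-to-C conversion. Reads with conversions, called labelled reads here, are therefore taken as RNA made during the labelling. Every library had s4U, so conversions present without it were not measured here.

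The measure of interest was the difference between the auxin responses, that is the log2 change with auxin in tagged cells minus that in parental cells, called the interaction below. A positive interaction means that a transcript was higher with auxin in tagged cells relative to its auxin response in parental cells, and a negative one the reverse. It was tested for total reads, for labelled reads and for the labelled share, which sets a gene's labelled reads against its unlabelled ones. Genes were tested with edgeR's quasi-likelihood test and p-values adjusted by the Benjamini-Hochberg method over all genes tested, with a threshold of 0.05. Levels are CPM, the usual read counts relative to library size, here scaled by TMM, changes are on the log2 scale, and errors of changes are standard errors.

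The 16 libraries held 2.67 M to 4.22 M reads in named genes, with 12404 to 12688 genes detected, and 11.4% to 13.4% of those reads were labelled. Counts of 24 pairs of libraries within a group differed beyond counting error (chi-square over its degrees of freedom from 2.08 to 17.3), so none was treated as a duplicate. In such bulk samples fewer cells of a type and less RNA per cell cannot be told apart. Each library was 1 well, and the labels do not say whether the replicate numbers mark plates or days. The p-values of the gene tests measure the spread between libraries of a group, including any part that goes with the replicate number. The share of labelled reads followed that number in every group, as described under the other observations. All 12 colorectal epithelial markers were tested, with a summed level of 2296 to 3070 CPM, led by the keratin KRT19 at a mean of 911 CPM. Of 6 fibroblast markers 4 were at 0 in every library, and COL1A1 averaged 23.9 CPM. Of 6 blood cell markers PTPRC, CD3E and LYZ were at 0 in every library, and CD68 averaged 4.38 CPM.

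IGF2BP3 mRNA itself did not separate the groups. In parental cells its level was 175, 169.7, 148 and 152 CPM with vehicle and 155, 153, 138 and 143 CPM with auxin. In tagged cells it lay at 157, 156, 157 and 165 CPM with vehicle and 173, 133, 166 and 138 CPM with auxin. The groups overlapped in both lines, and the interaction was 0.07 ± 0.13 (edgeR adjusted p = 0.918). The degron acts on the protein, so the mRNA level checks neither the tag nor the depletion, and protein was not measured in these files. IGF2BP2, a paralogue, had an interaction of 0.08 ± 0.12 (edgeR adjusted p = 0.889), and IGF2BP1 lay at 0 to 3.30 CPM and was too low to test.

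For total reads 34 of 10948 genes passed the threshold in the interaction, which is 0.311% of the genes tested. Of these 26 (0.237%) were lower and 8 (0.0731%) were higher. At an unadjusted p under 0.05 there were 1112 genes, and the median interaction over all genes was −0.00, with quartiles of −0.20 and 0.19. In the lines by themselves auxin changed far more genes: 1272 in tagged cells (11.6%; 615 higher, 657 lower) and 2391 in parental cells (21.8%; 1285 higher, 1106 lower). Without vehicle-treated tagged replicate 4 or auxin-treated tagged replicate 2 the tagged count was 7 or 8, and without auxin-treated parental replicate 3 or vehicle-treated parental replicate 3 the parental count was 1113 or 3480. Of the genes called in each line, only 18 and 28 respectively were among the 34. There were 577 genes called in both lines in the same direction and 14 in opposite directions, and 12 of these 14 were among the 34. Across the 10948 genes the auxin changes of tagged and parental cells had Pearson's r of 0.679 and Spearman's rho of 0.617, given as a description because genes are not independent replicates. Passing in one line and missing in the other is not a difference between the lines, and only the interaction tests that.

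**Figure D1:**
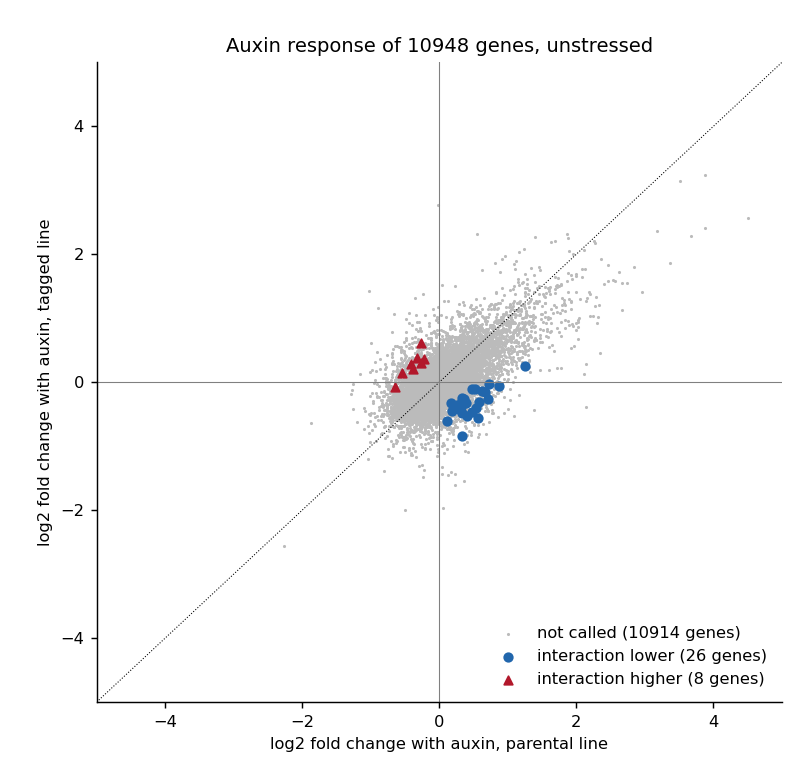
Log2 change with auxin in parental cells (horizontal axis) and tagged cells (vertical axis) for 10948 genes in unstressed cells, total reads; the dotted diagonal marks equal responses. Most genes lie along the diagonal, while the 26 genes with a lower interaction sit below and right of it and the 8 with a higher interaction above and left of it.

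The count of 34 depended on single libraries. Leaving out 1 of the 16 at a time gave 4 to 69 genes, and all 34 kept their sign each time. The genes were chosen in these same libraries, so the kept signs are no independent support. The 4 genes SH2B1, FOXK1, GLE1 and CALR passed in all 16 of these fits, PSMD1 and PDCD6 in 15, and 17 of the 34 in at most 8. The lowest counts came without auxin-treated parental replicate 1 (4 genes) or 2 (7 genes) or vehicle-treated tagged replicate 1 (7 genes), and the highest without vehicle-treated parental replicate 3 (69 genes) or 2 (66 genes). The libraries also differed within groups along 1 main axis that held 42.2% of the within-group variance of 8018 genes. Across those genes the axis loadings had r of −0.850 with the auxin change in tagged cells, −0.820 in parental cells and 0.129 with the interaction. With this axis as a covariate 484 genes passed, all 34 among them. The axis was taken from the within-group spread of these same libraries. Fitting it takes that spread out of the error, so neither number supports the 34 genes. Covered T positions per read were higher with auxin by 1.31 in tagged and 1.60 in parental cells, and their part in the result was not tested.

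The pattern among the 34 genes was one of opposite movement. In 32 of them the auxin changes of the lines had opposite signs, the exceptions being SEL1L3 and MRPL4. Auxin passed the test in both lines for 12 genes, in tagged cells only for 6 and in parental cells only for 16. Vehicle and auxin libraries did not overlap in either line for 18 of the 34, in opposite directions for 17 of these. Over all 10948 genes such separation was seen for 20.7% in tagged cells and 18.2% in parental cells, and in both lines with opposite directions for 0.265%. These shares describe the same contrast that chose the genes and support nothing beyond it.

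SH2B1, an adaptor protein of insulin and other receptor tyrosine kinase signalling (chr16:28846606-28874205), had the smallest adjusted p. In parental cells it lay at 50.6, 53.9, 41.4 and 43.0 CPM with vehicle and 71.9, 73.1, 63.9 and 68.9 CPM with auxin. Its levels in tagged cells were 68.1, 70.4, 67.3 and 72.1 CPM with vehicle and 52.5, 39.2, 47.4 and 50.8 CPM with auxin. Auxin libraries were all above vehicle libraries in parental cells and all below them in tagged cells. SH2B1 rose by 0.56 ± 0.11 in parental cells (edgeR adjusted p = 0.00241), and its change in tagged cells was −0.55 ± 0.12 (adjusted p = 0.0134). Together the interaction was −1.12 ± 0.16 (edgeR adjusted p = 0.00389). With auxin the parental mean of 69.4 CPM lay near the vehicle mean of tagged cells, 69.5 CPM. The tagged mean with auxin, 47.5 CPM, lay near that of parental vehicle, 47.2 CPM.

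FOXK1, HDAC7 and TOX2, which act in transcription and chromatin, are described together here; they were grouped after their values were seen. FOXK1, a forkhead transcription factor that acts in metabolism and autophagy (chr7:4682295-4771442), went from 40.5, 47.9, 52.7 and 54.9 CPM to 88.0, 71.7, 90.1 and 70.4 CPM with auxin in parental cells. In tagged cells it went from 68.4, 70.7, 70.6 and 63.0 CPM to 54.6, 53.3, 62.6 and 56.1 CPM. The groups did not overlap in either line. FOXK1 rose by 0.71 ± 0.12 in parental cells (edgeR adjusted p = 0.00083), while the tagged difference of −0.27 ± 0.12 did not pass (edgeR adjusted p = 0.122). Its interaction was −0.97 ± 0.17 (edgeR adjusted p = 0.0107). HDAC7, a class IIa histone deacetylase (chr12:47782722-47821344), moved from 119.9, 178, 124 and 163 to 206, 241, 181 and 183 CPM in parental cells. In tagged cells it moved from 178, 172, 174 and 211 to 152, 119.6, 119.9 and 142 CPM. Both lines' groups were separate and both changes passed the test, and the interaction was −0.94 ± 0.18 (edgeR adjusted p = 0.0217). TOX2, an HMG-box transcription factor (chr20:43914852-44069616), behaved alike, with 0.40 ± 0.13 in parental cells (edgeR adjusted p = 0.0255) and −0.53 ± 0.13 in tagged cells (edgeR adjusted p = 0.0169), and the interaction was −0.93 ± 0.18 (edgeR adjusted p = 0.0217).

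Among genes of RNA export and splicing, GLE1, which activates the DEAD-box helicase that remodels mRNPs at the nuclear pore (chr9:128504692-128542288), passed the test in parental cells. Its parental levels were 76.5, 72.1, 103 and 102 CPM with vehicle and 163, 172, 169 and 142 CPM with auxin. In tagged cells they were 130.4, 112, 127 and 139 CPM and 121, 109, 131 and 129 CPM, and those groups overlapped. GLE1 rose by 0.87 ± 0.11 in parental cells (edgeR adjusted p = 0.000171), the value in tagged cells was −0.06 ± 0.11, and the interaction was −0.92 ± 0.16 (edgeR adjusted p = 0.0111). MAGOH, a core protein of the exon junction complex, had a smaller interaction of −0.58 ± 0.12 (edgeR adjusted p = 0.0311).

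Several of the lower genes act in the endoplasmic reticulum, membranes or protein turnover; they were put together here after their values were seen. CALR encodes calreticulin, a lectin chaperone of the endoplasmic reticulum (chr19:12938609-12944489). It lay at 533, 417, 609.6 and 578 CPM in vehicle-treated and 869, 936, 805 and 795 CPM in auxin-treated parental cells. The tagged line had 773, 725, 758 and 776 CPM and 673, 627, 713 and 713 CPM. The groups were separate in both lines, with the tagged difference of −0.15 ± 0.10 not past the threshold (edgeR adjusted p = 0.275), and the interaction was −0.82 ± 0.14 (edgeR adjusted p = 0.0107). SEL1L3, a membrane protein related to the degradation adaptor SEL1L (chr4:25713964-25863566), was higher with auxin in every library of both lines. It went from 37.9, 47.0, 61.9 and 56.6 to 136, 116, 143 and 90.3 CPM in parental cells and from 76.1, 84.1, 84.8 and 75.1 to 96.2, 95.7, 96.1 and 91.4 CPM in tagged cells. Its interaction of −1.002 ± 0.19 (edgeR adjusted p = 0.0217) thus came from a smaller difference in tagged cells, 0.25 ± 0.13, which did not pass (edgeR adjusted p = 0.213).

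ATG2A had the lowest interaction of the 26. It encodes a lipid transfer protein needed to expand autophagosomes (chr11:64894546-64917209). Its parental levels were 22.7, 38.5, 22.4 and 34.5 CPM with vehicle and 35.5, 41.0, 35.1 and 37.1 CPM with auxin, which overlapped. Its tagged levels fell from 43.6, 39.4, 39.6 and 52.5 CPM to 30.1, 21.1, 23.5 and 23.7 CPM, with no overlap, by 0.84 ± 0.17 (edgeR adjusted p = 0.0122), and the interaction was −1.17 ± 0.24 (edgeR adjusted p = 0.0295). TRIM14, a tripartite-motif protein of antiviral signalling, shared this form, with −0.61 ± 0.10 in tagged cells (edgeR adjusted p = 0.00914) and 0.12 ± 0.10 in parental cells (edgeR adjusted p = 0.436). Its interaction was −0.73 ± 0.15 (edgeR adjusted p = 0.027). UBA1, the main enzyme that activates ubiquitin, passed in both lines in opposite directions, with an interaction of −0.73 ± 0.14 (edgeR adjusted p = 0.0217).

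Also lower were SLC39A4, a zinc importer, at −0.94 ± 0.19 (edgeR adjusted p = 0.0311), and APH1A, a subunit of γ-secretase, at −0.88 ± 0.18 (edgeR adjusted p = 0.0311). APH1A in tagged cells was 229, 199, 199 and 258 CPM with vehicle and 201, 117, 203 and 198 CPM with auxin, and replicate 2 with auxin stood alone at 117 CPM. Over the 26 lower genes the interaction ranged from −1.17 to −0.48 with a median of −0.74.

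The 8 genes with a higher interaction had smaller values, from 0.56 to 0.88 with a median of 0.64. PSMD1, a large non-ATPase subunit of the proteasome's regulatory particle (chr2:231056867-231172827), lay at 278, 252, 267 and 298 CPM with vehicle and 183, 205, 199 and 233 CPM with auxin in parental cells. With the tag it lay at 247, 226, 243 and 252 CPM and 302, 309, 291 and 275 CPM. Auxin libraries were all lower in parental and all higher in tagged cells, both changes passed the test, and the interaction was 0.70 ± 0.12 (edgeR adjusted p = 0.0107). PDCD6, a calcium-binding protein also called ALG-2 that acts at sites of vesicle budding (chr5:271646-314974), lay at 169.5, 194, 192 and 173 CPM and 141, 148, 129 and 164 CPM in parental cells. Its tagged values were 146, 134, 144 and 129.5 CPM and 173, 197, 170.2 and 176 CPM. Its groups were also separate in both lines, and the interaction was 0.70 ± 0.13 (edgeR adjusted p = 0.0175). ERLEC1, a lectin of the endoplasmic reticulum that recognises glycans on misfolded proteins (chr2:53787044-53818796), had the largest higher value, 0.88 ± 0.18 (edgeR adjusted p = 0.0311). In tagged cells it rose from 26.4, 32.7, 34.6 and 28.1 CPM to 46.6, 50.3, 49.7 and 40.6 CPM, whereas its parental groups overlapped.

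COPS5, the catalytic subunit of the COP9 signalosome, which removes NEDD8 from cullin ligases, had an interaction of 0.60 ± 0.13 (edgeR adjusted p = 0.0379). The ligase that OsTIR1 joins is of this class. COPS5 was among the least stable of the 34, passing in 2 of the 16 fits that leave out a library. GORASP2, a Golgi stacking protein, was at 0.57 ± 0.13 (edgeR adjusted p = 0.0427) and CDKN3, a phosphatase of cyclin-dependent kinases, at 0.68 ± 0.14 (edgeR adjusted p = 0.0311). Both genes of mitochondrial proteins among the 8, PMPCA (a subunit of the processing peptidase) and MRPL4 (a mitochondrial ribosomal protein), fell in parental cells, by 0.39 ± 0.09 and 0.65 ± 0.08 (edgeR adjusted p = 0.00506 and 0.000171). In tagged cells their values were 0.20 ± 0.09 and −0.08 ± 0.08, and neither passed.

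**Figure D2:**
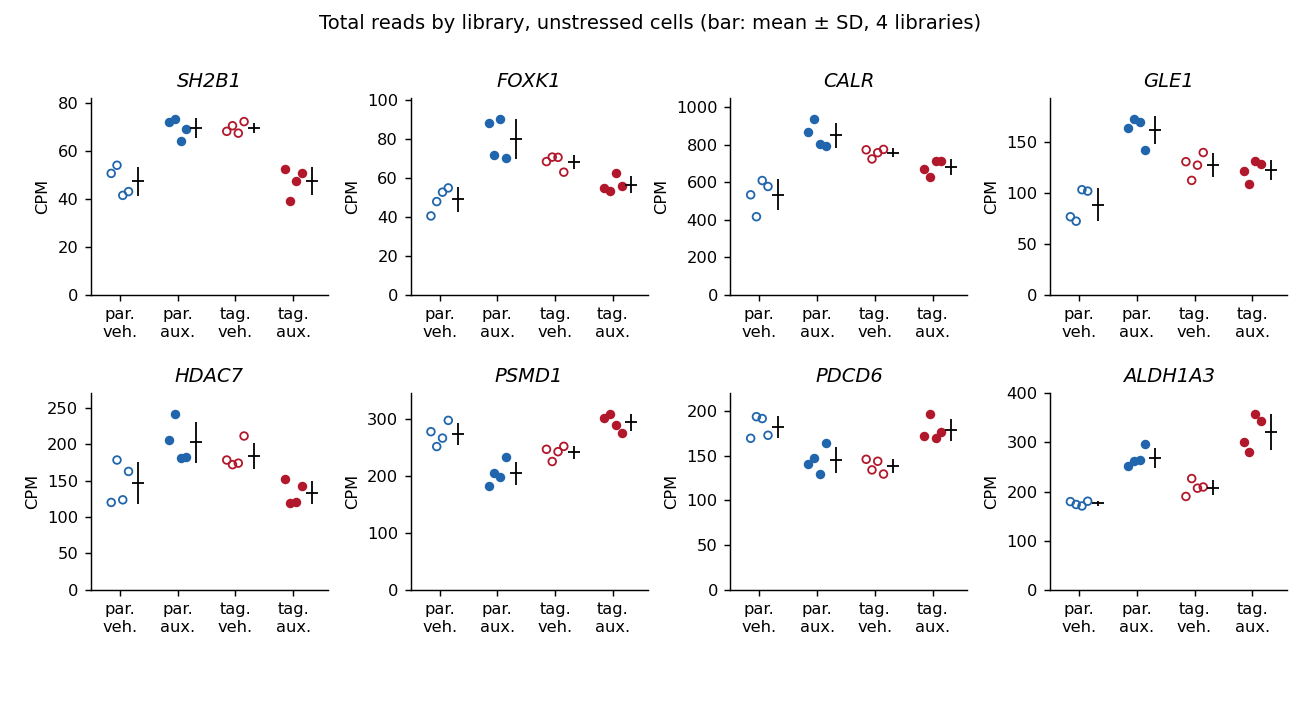
Total reads as CPM in each of the 16 unstressed libraries for SH2B1, FOXK1, CALR, GLE1, HDAC7, PSMD1, PDCD6 and the auxin-responsive ALDH1A3; blue is the parental line, red the tagged line, open circles vehicle, filled circles auxin, and the bar beside each group the mean ± SD of 4 libraries. The first 5 genes rose with auxin in parental cells and not in tagged cells, PSMD1 and PDCD6 moved the other way, and ALDH1A3 rose in both.

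The lines lay apart for these genes before auxin. With vehicle, tagged cells were above parental cells in 26 of the 26 lower genes, by a median of 0.36 on the log2 scale, and in 0 of the 8 higher genes, with a median of −0.29. With auxin the order was turned around: tagged cells were above parental cells in 0 of the 26, with a median of −0.39, and in 8 of the 8, with a median of 0.40. The vehicle libraries are part of the contrast that chose the genes, so this describes the form of the interaction and tests nothing.

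**Figure D3:**
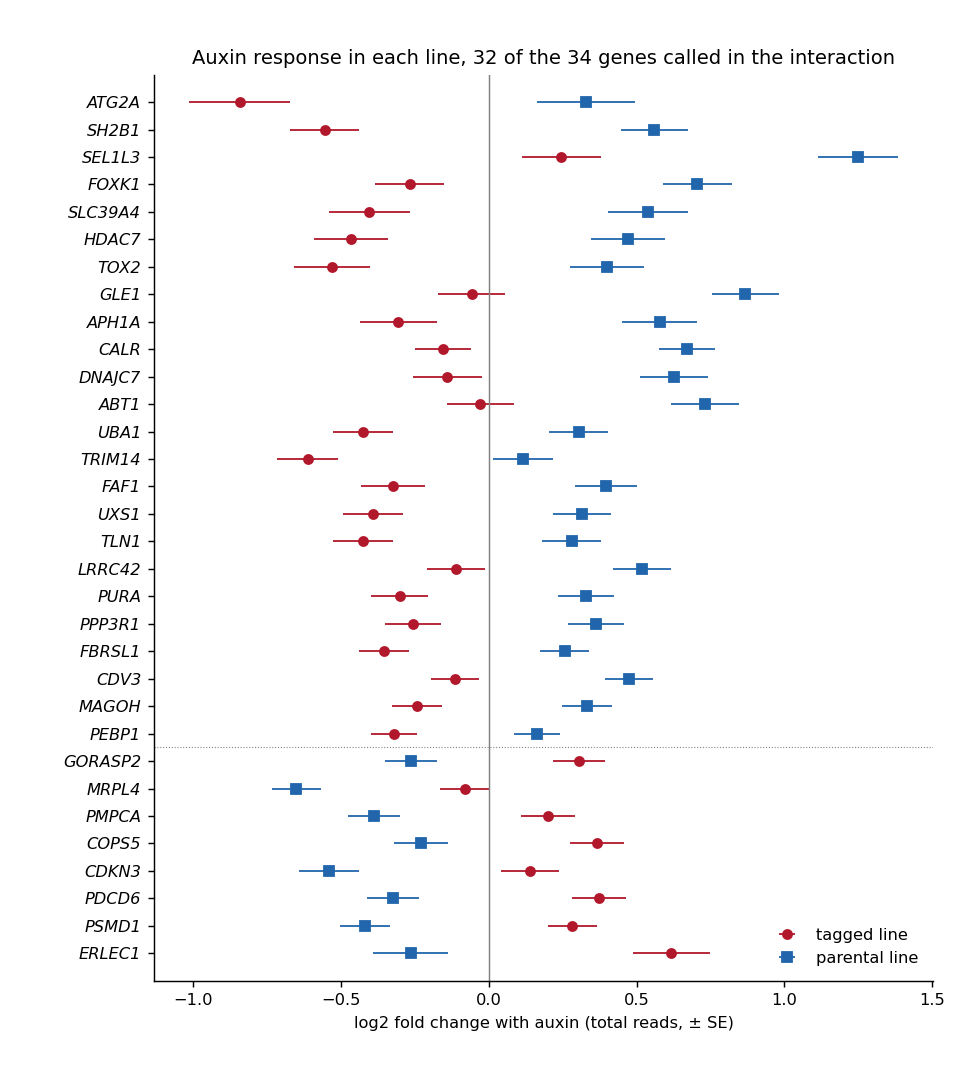
Log2 change with auxin (total reads, ± SE) of 32 of the 34 genes called in the interaction, red circles for tagged and blue squares for parental cells, ordered by the interaction; the dotted line divides the 24 lower from the 8 higher genes shown. The 2 lines lie on opposite sides of 0 for 30 genes, and on the same side for SEL1L3 and MRPL4.

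At the threshold itself, PEBP1, an inhibitor of Raf kinase, was the last gene inside (interaction −0.48 ± 0.11, edgeR adjusted p = 0.05). HSD11B2, which inactivates cortisol, was the first outside with a larger but noisier value (−1.34 ± 0.31, edgeR adjusted p = 0.0609). On simulated counts of 8533 genes with this design the test recovered 25% of genes changed by 0.6 on the log2 scale. Of genes changed by 1 it recovered 75%. The real test covered 10948 genes, and recovery over all of these was not tested. Simulated counts were drawn separately for each gene. Real libraries also differed along the within-group axis described above, with 42.2% of the within-group variance, which the simulation left out. These rates therefore describe the simulation only.

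The 34 genes were better measured than most. Their median level was 147 CPM for the lower and 141 CPM for the higher genes against 34.6 CPM over all genes tested. Their counted 3′ regions had medians of 765 and 526.5 bases against 1116, and the T content of those regions 28.4% and 31.3% against 29.9%. In vehicle-treated cells a median of 12.46% and 11.96% of their reads were labelled against 17.7% over all genes. They lay on 17 chromosomes, and the span of 22 of them overlaps another annotated gene. Whether the counted regions share reads with those genes was not tested, and the counting's use of strand is not given in the sources used here.

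Labelled reads gave the same direction for these genes with less precision. The interaction in labelled reads had the same sign for 34 of the 34, with medians of −0.75 for the lower and 0.71 for the higher genes. An unadjusted p under 0.05 was reached by 24 of the 34, against 605 of all 8533 genes tested. Labelled reads are part of the total reads, so this is not independent of the choice of genes. In the labelled share the sign was the same for 18 of the 34, with medians of 0.09 for the lower and 0.08 for the higher genes. There 3 of the 34 had an unadjusted p under 0.05, against 430 of all 8533 genes tested. The shares of matching signs over all genes are not given here. The share of SH2B1, for example, was 22.6% ± 4.57 (SD, n = 4) with vehicle and 18.1% ± 2.13 with auxin in parental cells. In tagged cells it was 24.1% ± 2.74 and 21.8% ± 5.54, which is within the spread between libraries.

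Over all genes no interaction in labelled reads passed the threshold, 0 of 8533 (0%), with 605 genes at an unadjusted p under 0.05 and a smallest adjusted p of 0.132. DESeq2 and limma-voom also called 0. Auxin alone changed 206 labelled genes in tagged cells (2.41%), 96 higher (1.13%) and 110 lower (1.29%), and 330 in parental cells (3.87%), 200 higher (2.34%) and 130 lower (1.52%). These splits moved with the scaling: when library sizes of the total reads were used, tagged cells had 43 higher and 204 lower, and parental cells 120 higher and 150 lower. Without vehicle-treated parental replicate 2 or 3 the parental count was 116 or 658, and without auxin-treated tagged replicate 2 the tagged count was 18. On simulated labelled counts the test recovered 6% of genes changed by 0.6 and 38% of those changed by 1. These counts were also drawn separately for each gene, with a spread estimated from total reads and without the within-group axis. The rates therefore describe the simulation only, and the count of 0 is a statement at this depth.

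The genes nearest to the threshold in labelled reads included RCC2, a guanine nucleotide exchange regulator of Rac1 and Arf6 that acts in mitosis. Its labelled level was 172, 185, 221 and 168 CPM with vehicle and 357, 362, 373 and 319 CPM with auxin in parental cells. In the tagged line its levels were 232, 283, 306 and 315 CPM and 255, 317, 288 and 284 CPM. Its parental groups were separate and its tagged groups overlapped, with a labelled interaction of −0.91 ± 0.20 (edgeR adjusted p = 0.132). HDAC7 had −0.89 ± 0.20 (edgeR adjusted p = 0.132), ARID3A, an AT-rich DNA-binding factor, −1.51 ± 0.37 (0.197) and ATG2A −1.5 ± 0.38 (0.218).

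On the higher side stood S100A10, the light chain of the annexin A2 tetramer. Its labelled level was 138, 138, 139 and 162 CPM with vehicle and 115, 90.6, 82.6 and 110.3 CPM with auxin in parental cells. In tagged cells it lay at 135, 181, 184 and 106 CPM and 215, 239, 183 and 218 CPM. The parental groups were separate and the tagged groups overlapped, and the labelled interaction was 1.03 ± 0.26 (edgeR adjusted p = 0.218). ATG3, the E2-like enzyme that lipidates LC3, was at 1.40 ± 0.37 (edgeR adjusted p = 0.218) and YTHDF2, a reader of m6A that promotes mRNA decay, at 0.62 ± 0.17 (edgeR adjusted p = 0.218). FHL2, a LIM-domain cofactor, was at 0.93 ± 0.25 and ADPRS, which removes ADP-ribose from proteins, at 1.01 ± 0.28 (edgeR adjusted p = 0.218 for both).

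For the labelled share 0 of 8533 genes passed in the interaction (0%), with 430 at an unadjusted p under 0.05 and a smallest edgeR adjusted p of 0.825. In tagged cells 0 genes passed for auxin (690 at an unadjusted p under 0.05), and in parental cells 33 did (0.387%), 2 higher (0.0234%) and 31 lower. The 10 genes with the smallest p all had an adjusted p of 0.825. SLC39A6, a zinc importer, had the smallest. Its labelled share was 4.41, 6.44, 5.25 and 6.55% with vehicle and 9.66, 7.52, 8.43 and 6.34% with auxin in parental cells. Its tagged values were 8.58, 8.03, 7.07 and 5.80% and 3.76, 5.36, 4.62 and 6.54%. Both pairs of groups overlapped, and the interaction was −1.01 ± 0.27 (edgeR adjusted p = 0.825). PARK7, a redox-sensing protein, had −0.58 ± 0.17, and HMGA2, an architectural chromatin protein and a reported IGF2BP3 target, 0.49 ± 0.15, neither past the threshold.

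Whole-library labelling gave no interaction past the threshold. Labelled reads were 12.9% ± 0.521 (SD, n = 4 libraries) of reads with vehicle and 12.7% ± 0.561 with auxin in parental cells. In tagged cells they were 12.6% ± 0.748 and 12.1% ± 0.637. The difference of differences was −0.386 percentage points (exact two-sided permutation test of auxin labels within each line, 4900 arrangements, p = 0.547, adjusted over 3 library measures 0.894). Between libraries of the same replicate number it was −0.667, −0.322, −0.387 and −0.168, all below 0 (exact two-sided sign-flip test, p = 0.125, the smallest that 4 numbers allow). For the rate of T-to-C conversion per covered T it was −0.0119 percentage points (exact permutation p = 0.894).

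The 34 genes were then looked up in the 16 stressed libraries, which share no sample with the unstressed ones. One of these, replicate 1 of stressed, auxin-treated parental cells, had the fewest reads in named genes of the series, 0.987 M, and stood apart, so results are given with and without it. No gene passed in the stressed interaction for total reads, 0 of 10997 with it (1452 at an unadjusted p under 0.05) and 0 of 11099 without it (1899). The sign matched the unstressed one in 29 of the 34 with that library and in 32 without it. Over all genes tested in both states the sign matched for 51.7% and 55.6%. An unadjusted p under 0.05 was reached by 12 of the 34 with it and 21 without it. The exceptions without it were SEL1L3 at 0.02 ± 0.17 and DNAJC7, a co-chaperone, at 0.09 ± 0.14.

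HDAC7 had the largest stressed value named here. Its stressed parental levels were 114, 91.6, 114 and 99.5 CPM with vehicle and 338, 198, 163 and 111 CPM with auxin. Its stressed tagged levels were 164, 153, 165 and 166 CPM and 147, 129.9, 112 and 127 CPM. The auxin-treated parental libraries spread from 111 to 338 CPM, and the highest was the small library. Its stressed interaction was −0.92 ± 0.18 without that library (edgeR adjusted p = 0.054) and −1.26 ± 0.33 with it (0.372). PURA, a single-stranded nucleic acid-binding protein, was at −0.61 ± 0.11 without that library (edgeR adjusted p = 0.054) and −0.70 ± 0.17 with it (0.372). APH1A was at −0.63 ± 0.12 without that library (edgeR adjusted p = 0.054) and −0.45 ± 0.24 with it (0.385), and TOX2 at −0.89 ± 0.20 without that library (edgeR adjusted p = 0.054) and −0.69 ± 0.33 with it (0.372). SH2B1 was at −0.65 ± 0.19 without that library (edgeR adjusted p = 0.0864) and −0.68 ± 0.20 with it (0.372), whereas FOXK1 was at −0.17 ± 0.18 without that library (edgeR adjusted p = 0.656) and −0.16 ± 0.19 with it (0.667). The medians over the 26 and the 8 were −0.41 and 0.27 without the small library and −0.21 and 0.38 with it.

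Whether the interaction differed between states was tested across the 32 libraries, and 0 of 11186 genes passed (1009 at an unadjusted p under 0.05), or 0 of 11258 without the small library (875). The difference contains the unstressed interaction that chose the 34 genes, so their own values are no test of it. They are given as a description for SEL1L3 and DNAJC7, whose edgeR adjusted p was 0.636 without the small library. Over all genes the interactions of the 2 states had r of 0.006 with and 0.063 without the small library, as a description.

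**Figure D4:**
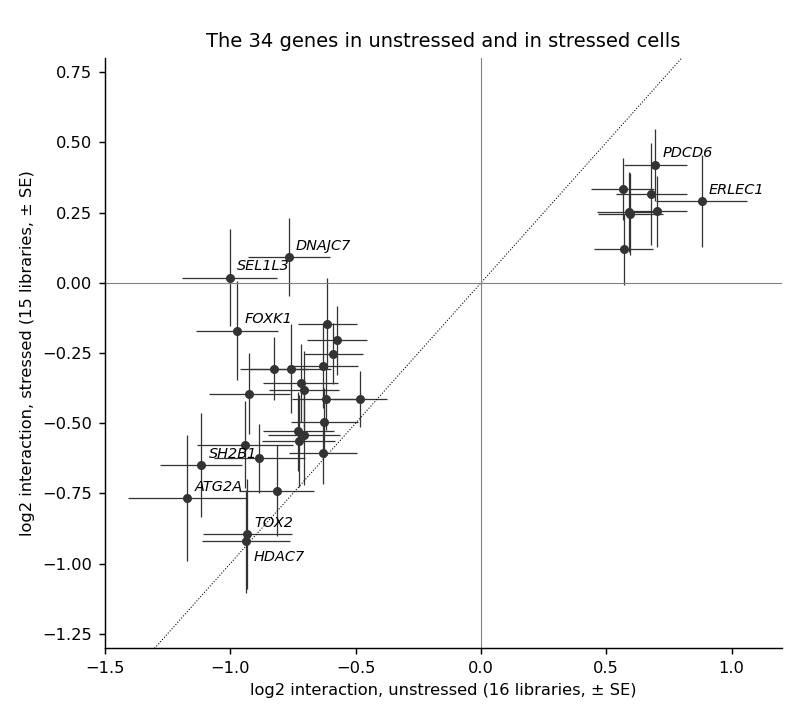
Log2 interaction of the 34 genes in unstressed (horizontal, 16 libraries) and stressed cells (vertical, 15 libraries, without the smallest), each ± SE; the dotted line marks equal values. All genes but SEL1L3 and DNAJC7 have the same sign in both states, and a smaller size under stress is no finding, since the genes were chosen for their unstressed values.

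Transcripts reported elsewhere as bound or stabilised by IGF2BP3 did not pass the interaction test. Of 36 listed genes 29 were tested and 0 were called in either direction (background 0.311%), with 8 interactions above and 21 below 0. Their median was −0.16 against −0.00 over all genes tested. In tagged cells 3 rose and 6 fell with auxin (5.62% and 6% of all genes), and in parental cells 4 rose and 2 fell (11.7% and 10.1% of all genes). IGF2, the growth factor mRNA that gave the family its name, came closest. It lay at 105, 104, 111 and 90.9 CPM with vehicle and 144, 134, 120 and 115 CPM with auxin in parental cells. Its levels in tagged cells were 96.0, 96.8, 108 and 112 CPM and 94.8, 59.3, 79.2 and 84.6 CPM. Auxin libraries were all higher in parental and all lower in tagged cells, and the interaction was −0.70 ± 0.17 (edgeR adjusted p = 0.0715).

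HMGA2 lay at 259.6, 291, 276 and 324 CPM with vehicle and 229.6, 221, 209 and 239.7 CPM with auxin in tagged cells, with no overlap. In parental cells it lay at 401, 386, 356 and 378 CPM and 363, 377, 336 and 405 CPM, and the interaction was −0.32 ± 0.12 (edgeR adjusted p = 0.342). MYC, a proto-oncogene transcription factor, had auxin changes of 0.82 ± 0.26 in tagged and 0.93 ± 0.26 in parental cells and an interaction of −0.11 ± 0.37 (edgeR adjusted p = 0.956). The cyclin gene CCND1 had an interaction of −0.20 ± 0.12 and the hyaluronan receptor gene CD44 0.20 ± 0.12 (edgeR adjusted p = 0.61 and 0.602).

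Auxin is an indole, and indoles are known ligands of the aryl hydrocarbon receptor (AhR), a ligand-activated transcription factor. Of 21 listed AhR targets 13 were tested, and 10 rose in tagged (background 5.62% higher) and 9 in parental cells (11.7% higher). None fell, and the median changes were 0.69 and 0.66. This list, like the others, was written with earlier results of these data known, so its counts are a description. Whether auxin acted through AhR was not tested. In the interaction 0 of 13 passed and the median was 0.02. ALDH1A3, a retinaldehyde dehydrogenase, lay at 179.5, 174, 171 and 180.3 CPM with vehicle and 252, 262, 264 and 297 CPM with auxin in parental cells. The tagged line had 190, 227, 207 and 209 CPM and 301, 281, 358 and 345 CPM. The groups were separate in both lines and the interaction was 0.01 ± 0.12 (edgeR adjusted p = 0.985). CYP1B1, a cytochrome P450 of this response, changed by 0.69 ± 0.17 in tagged and 0.69 ± 0.16 in parental cells, with an interaction of 0.01 ± 0.23 (edgeR adjusted p = 0.996). TIPARP, an ADP-ribosyltransferase that feeds back on AhR, had an interaction of 0.08 ± 0.46 (edgeR adjusted p = 0.976).

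CYP1A1, the cytochrome P450 used most as a readout of AhR, was the exception in size though not in the test. It lay at 2.92, 2.12, 5.05 and 3.48 CPM with vehicle and 5.30, 3.45, 6.23 and 5.07 CPM with auxin in parental cells. With the tag it lay at 2.68, 2.00, 0.330 and 1.07 CPM and 7.70, 6.28, 8.94 and 7.05 CPM. Tagged groups were separate and parental groups overlapped. CYP1A1 rose in tagged cells by 2.32 ± 0.41 (edgeR adjusted p = 0.0108), the parental value was 0.55 ± 0.35, and the interaction of 1.77 ± 0.55 did not pass (unadjusted p = 0.00349, edgeR adjusted p = 0.22). It averaged 15.2 reads per library, so the counts behind it are low.

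The promoters of CYP1A1 and TIPARP are shown because AhR targets were the list that rose most in both lines. Each is the 250 bases before the transcript start in RefSeq (GRCh38.p14), 5′ to 3′ on the gene's strand, with matches to GCGTG, the core bound by AhR and its partner ARNT, or to its reverse complement CACGC in capitals. For CYP1A1 this is chr15:74725529-74725778 on the minus strand, and for the first listed TIPARP start chr3:156674340-156674589 on the plus strand.
CYP1A1: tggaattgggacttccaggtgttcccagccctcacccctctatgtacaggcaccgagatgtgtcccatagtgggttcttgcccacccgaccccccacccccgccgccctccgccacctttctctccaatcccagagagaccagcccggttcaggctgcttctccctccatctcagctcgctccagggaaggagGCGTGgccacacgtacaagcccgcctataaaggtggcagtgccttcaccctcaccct
TIPARP: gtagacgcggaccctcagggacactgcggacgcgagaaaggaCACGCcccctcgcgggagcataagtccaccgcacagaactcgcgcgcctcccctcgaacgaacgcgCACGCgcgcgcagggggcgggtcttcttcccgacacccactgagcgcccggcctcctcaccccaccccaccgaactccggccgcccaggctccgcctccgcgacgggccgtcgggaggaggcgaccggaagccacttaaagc
There was 1 match in the former and 2 in the latter, the other TIPARP starts in the table (chr3:156674676-156674925 and chr3:156676414-156676663) held 0, and 32.2% of 35116 promoters of this length held at least 1. A match is a run of letters and says nothing of binding in these cells.

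Many ribosomal protein mRNAs fell with auxin in both lines, and none was called in the interaction. Of 32 small-subunit genes 20 fell in tagged cells (background 6% lower) and 14 in parental cells (10.1% lower), with medians of −0.40 and −0.35 and no rise. In the interaction 0 of 32 passed and the median was −0.11. RPS14 had the smallest p on the lower side at −0.44 ± 0.18 (edgeR adjusted p = 0.395). Of 45 large-subunit genes 12 fell in tagged and 21 in parental cells, 1 rose in parental cells, and 0 passed in the interaction (median 0.10). These are multigene families with many near-identical pseudogenes, so their counts are less certain.

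Of 73 oxidative phosphorylation subunits 36 fell and 8 rose in parental cells (10.1% and 11.7% of all genes). In tagged cells 15 fell and 3 rose (6% and 5.62% of all genes), and these counts were not tested against each other. In the interaction 0.311% of all genes were called. Proteasome subunits had 1 of 30 called, PSMD1, which was higher, with a median of 0.10. Parts and regulators of the cullin ligase that OsTIR1 uses had 1 of 22 called, COPS5, which was higher, with a median of 0.09. Chaperones of the endoplasmic reticulum had 1 of 28 called, CALR, which was lower, with a median of −0.13. Of these chaperones 8 rose and 3 fell in parental cells (11.7% and 10.1% of all genes), and 3 rose and 3 fell in tagged cells (5.62% and 6%). The counts of the lines were not tested against each other.

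Tunicamycin, the stress agent of the other libraries, sets off the unfolded protein response, and without it 0 of 12 sensors and regulators of that response passed in the interaction (median 0.10). Of the targets of ATF4 and CHOP 0 of 34 passed (median 0.05), against 0.311% of all genes. XBP1, the transcription factor whose mRNA is spliced by IRE1, lay at 35.2, 37.4, 41.9 and 34.04 CPM with vehicle and 57.1, 56.5, 47.0 and 58.4 CPM with auxin in tagged cells. In parental cells it lay at 47.3, 42.1, 53.9 and 60.4 CPM and 43.5, 45.8, 53.5 and 59.7 CPM. XBP1 rose in tagged cells by 0.56 ± 0.14 (edgeR adjusted p = 0.0167), with separate groups, but the interaction was 0.58 ± 0.19 (edgeR adjusted p = 0.257). ATF4, DDIT3 and HSPA5, which encode 2 transcription factors and the chaperone BiP of this response, had interactions of 0.27 ± 0.20, 0.11 ± 0.27 and 0.10 ± 0.12 (edgeR adjusted p = 0.729, 0.933 and 0.845). GDF15, a secreted stress factor, came nearest to the threshold in this group at −0.61 ± 0.15 (edgeR adjusted p = 0.0762).

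Immediate-early genes rose in parental cells for 9 of 32 (11.7% of all genes) and in tagged cells for 3 of 32, near the 5.62% of all genes, with 1 fall in tagged cells. None, 0 of 32, passed in the interaction (median −0.12). Of the NRF2 targets 0 of 21 passed, against 0.311% of all genes. SRXN1, which restores oxidised peroxiredoxins, was the nearest. It lay at 63.5, 63.3, 115 and 77.8 CPM with vehicle and 218, 178, 245 and 158 CPM with auxin in parental cells. In the tagged line its levels were 141, 172, 138 and 113 CPM and 152, 169, 173 and 172 CPM. Its parental groups were separate and its tagged groups overlapped, and the interaction was −1.07 ± 0.25 (edgeR adjusted p = 0.0902). Among heat shock proteins 0 of 16 passed (median 0.16), with HSF1, their transcription factor, at 0.49 ± 0.13 (edgeR adjusted p = 0.14) and HSPB1, a small heat shock protein, at −0.50 ± 0.14 (edgeR adjusted p = 0.171).

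Machinery that acts on the same mRNAs as IGF2BP3 showed no called interaction: 0 of 19 writers, erasers and readers of m6A (median 0.07), 0 of 41 mRNA decay factors (median −0.03) and 0 of 10 genes of the IGF2BP family and its partners (median 0.07). YTHDF2 had the smallest p among the m6A genes, at 0.51 ± 0.14 (edgeR adjusted p = 0.143). Cell cycle and growth lists were at 0 called as well, with 0 of 40 DNA replication genes (median 0.11), 0 of 35 mitosis genes (0.05), 0 of 26 p53 targets (−0.01) and 0 of 24 cholesterol synthesis genes (−0.00). In epithelial identity, 0 of 12 colorectal epithelial markers passed (0.11), and 0 of 20 genes of epithelial-mesenchymal transition and adhesion (0.03). Of retinoid genes 0 of 13 passed (0.12), and 0 of 7 AhR pathway components (−0.03). In total reads 0.311% of all genes tested passed in the interaction, so a count of 0 in any list above says little about its members. No list passed in the interaction of labelled reads or of the labelled share, where no gene did.

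**Figure D5:**
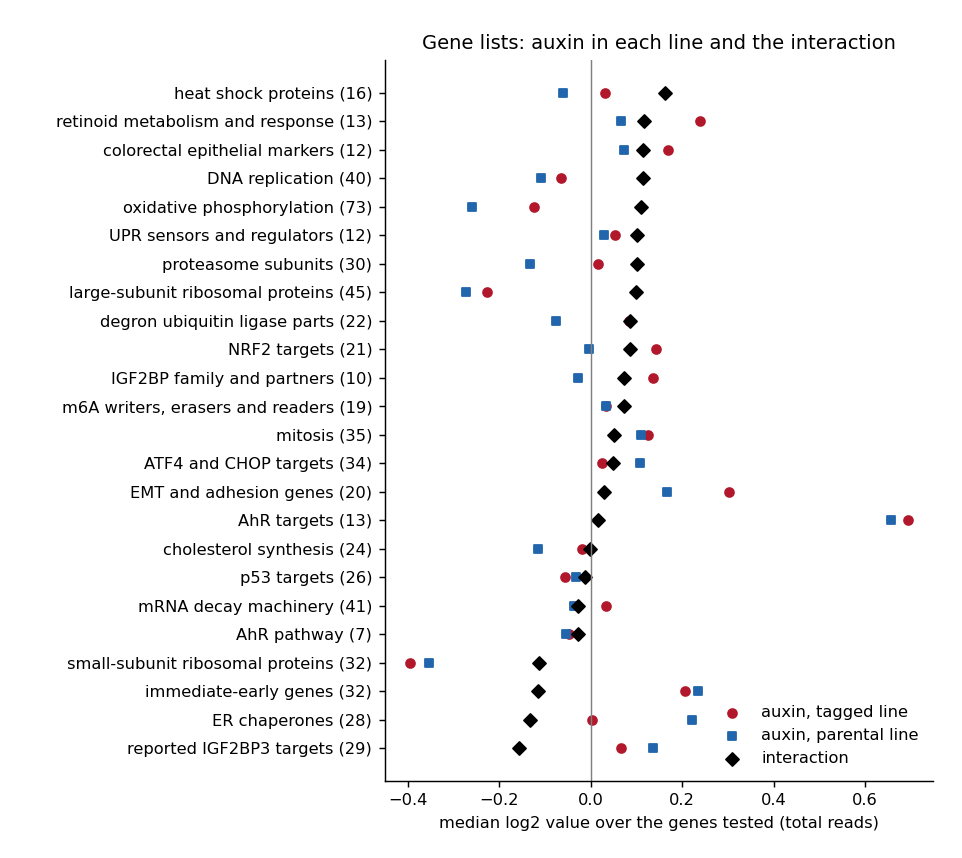
Median log2 value in total reads of each gene list with at least 5 genes tested, with the number of genes tested in parentheses: red circles for auxin in tagged cells, blue squares for auxin in parental cells, black diamonds for the interaction. AhR targets sit near 0.7 and ribosomal proteins below −0.2 in both lines, while every interaction median shown lies between −0.16 and 0.16.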

How the data were processed

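QuantSeq 3′ SLAM-seq counts of 16 unstressed libraries were used, with the 16 stressed ones for comparison. The deposited tables give, per transcript region, read counts and labelled read counts (reads with T-to-C conversions) with covered and converted T positions, per the file headers; the genome was hg38 per the submitters' processing notes. The authors' aligner settings, conversion threshold and strand use are not given in the sources used here. RefSeq identifiers were matched to symbols with a RefSeq table (GRCh38.p14), 46332 of 95582 matching, and 36.9% to 38.1% of reads in the unstressed libraries lay outside named genes and were left out. Each gene was represented by its region with the most reads, and 437 genes with values identical to another's were dropped, leaving 14169.

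Genes were kept by filterByExpr and tested with edgeR 4.0.16 (robust quasi-likelihood, TMM scaling) in R 4.3.3 over the 4 unstressed groups, without a replicate block. The share was tested on paired labelled and other counts with a term per library. DESeq2 1.42.0 and limma 3.58.1 were alternatives, with other filters, scalings, regions, a replicate block, a within-group axis as covariate, fits on all 32 libraries and each library left out. A fit on 31 libraries was added after seeing the data, as was the replicate block for library measures. The fits were tested on simulated counts of 8533 genes with known changes.

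The comparison and the gene lists were chosen with earlier results of these data known. Genes named are those past the threshold in the interaction, up to 10 in each direction by fold change. Where fewer than 5 passed, the 5 with the smallest p per direction were eligible, with at least 20 reads (10 labelled reads) per library on average. Fixed genes, members of the lists, and genes of each line's auxin test were added. Other called genes were named after their values were seen, and 2 of the 34 are not reported here.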

Additional observations from a re-analysis of the deposited data

Results flagged for a closer look

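The 32 genes below, of 34 called, passed the test of the difference between the lines' auxin responses (edgeR interaction, total reads, log2). With 1 library left out at a time, 17 of the 34 passed in at most 8 of the 16 fits. The lowest values were ATG2A at −1.17, SH2B1 at −1.12, SEL1L3 at −1.002, FOXK1 at −0.97, SLC39A4 at −0.94, HDAC7 at −0.94, TOX2 at −0.93, GLE1 at −0.92 and APH1A at −0.88. Next came CALR at −0.82, DNAJC7 at −0.77, ABT1 at −0.76, UBA1 at −0.73, TRIM14 at −0.73, FAF1 at −0.72, UXS1 at −0.71 and TLN1 at −0.71. Nearest to 0 among the lower genes were PURA at −0.63, LRRC42 at −0.63, PPP3R1 at −0.62, FBRSL1 at −0.61, CDV3 at −0.59, MAGOH at −0.58 and PEBP1 at −0.48. The higher genes were ERLEC1 at 0.88, PSMD1 at 0.70, PDCD6 at 0.70, CDKN3 at 0.68, COPS5 at 0.60, PMPCA at 0.59, MRPL4 at 0.57 and GORASP2 at 0.57.

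In 9 of 160 groups of 4 libraries examined, 1 library lay far from the other 3 by Dixon's criterion at the 95% level, about the 1 in 20 that chance gives, and 8 of the 9 are given here. With auxin in tagged cells APH1A was 116.6 CPM in replicate 2 (others 198 to 203 CPM) and MAGOH 130.9 CPM in replicate 2 (154 to 157 CPM). In the same group COPS5 was 106.7 CPM in replicate 3 (94.5 to 96.5 CPM) and SEL1L3 91.4 CPM in replicate 4 (95.7 to 96.2 CPM). With vehicle in tagged cells replicate 4 was high for HDAC7 at 211.2 CPM (172 to 178 CPM). In that group replicate 2 was low for TLN1 at 84.7 CPM (102 to 104 CPM) and for TRIM14 at 92.8 CPM (99.3 to 100.5 CPM). UBA1 was low in replicate 3 of auxin-treated parental cells at 335.8 CPM (385 to 390 CPM).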

How the results depend on the processing

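The direction of the interaction held for each of the 34 genes under every alternative run, while the count of called genes moved. The alternatives refitted the unstressed libraries that chose these genes, so the kept signs are no independent support. Against 34, a fit of all 32 libraries called 2 (SH2B1 and FOXK1), the within-group axis as covariate 484 and DESeq2 101. Without the smallest library, replicate 1 of stressed, auxin-treated parental cells, the fit of the remaining 31 libraries called 66, all 34 among them. No low-count filter, a stricter one, the longest region, limma-voom and RLE scaling called 33 to 37. With all 32 libraries the auxin test called 76 genes in tagged and 805 in parental cells, and with the axis 3150 and 3800. For labelled reads all 32 libraries gave 18 and 55 and the axis 461, 662 and, for the interaction, 15. For the share in tagged cells, 0 became 1 with 31 libraries, 6 with the stricter filter, 12 with the axis and 10 without centring. For the share in parental cells, 33 became 19 with all 32 libraries, 73 with the axis, 51 without centring, 3 with limma on the log2 ratio and 2 with limma on the conversion rate. DEF8 in labelled reads of parental cells turned from −0.997 to 0.43 (edgeR adjusted p = 0.445) when the longest region was counted. The cause of these shifts was not tested. Leaving out 1 library gave 4 to 69 genes in the interaction, 7 to 1974 in tagged and 1113 to 3480 in parental cells. The count of 7 in tagged cells came without vehicle-treated replicate 4, and without auxin-treated replicate 2 it was 8. For labelled reads these ranges were 0 to 4, 18 to 300 and 116 to 658, and for the share 0 to 1, 0 to 7 and 12 to 90. The stressed labelled interaction went from 0 to 18 without the smallest library. For total reads, the deviations of same-numbered libraries had r from −0.47 to 0.49 over 24 pairs, with a median of 0.079. Over 72 pairs of different numbers r ran from −0.585 to 0.554, with a median of −0.034. Of the 16 libraries 7 were closest to a library of their own number. The numbers were not taken as pairing for gene tests, and labelled reads and the share were not checked in this way. With the replicate block the interaction called 37 genes (32 of the 34), tagged cells 1642 and parental cells 2584. For labelled reads the block gave 0, 234 and 367, and for the share 0, 6 and 43, while the block on library labelling gave −0.386 percentage points (exact sign-flip p = 0.125, the smallest possible with 4 numbers).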

Other observations

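The share of labelled reads followed the replicate number. In unstressed cells replicates 1 and 3 lay above replicates 2 and 4 in each of the 4 groups, for example 13.2% to 13.4% against 12.2% to 12.8% in vehicle-treated parental cells and 12.5% to 12.8% against 11.4% to 11.7% in auxin-treated tagged cells. In stressed cells the order was the reverse in each of the 4 groups, for example 10.97% to 11.57% against 12.1% to 12.7% in vehicle-treated parental cells. This pattern was noticed in the data and was not tested, and the labels do not say what a replicate number marks.

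Among the genes with the largest auxin change in a single line, some had large interactions that did not pass. LIPT2, which moves lipoyl precursors to mitochondrial proteins, had 2.80 ± 0.80 (edgeR adjusted p = 0.167), with only 4, 1, 2 and 0 reads in the vehicle-treated tagged libraries. Also low in counts, at a mean of 10.6 reads per library, was RADIL, a Rap effector of cell adhesion, with −2.02 ± 0.65 (edgeR adjusted p = 0.235). CCDC28B, a protein of the cilium, averaged 18.9 reads and had −1.57 ± 0.44 (edgeR adjusted p = 0.159) and HMCES, which shields abasic sites in DNA, −1.48 ± 1.08 (edgeR adjusted p = 0.724).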
